A study of Mus musculus with 4 samples.

Results

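The clustered protocadherins are the genes named Pcdha, Pcdhb and Pcdhg followed by a number or by the letters A, B or C of their subfamily, and they lie side by side on mouse chromosome 18. The choice used names only, and earlier results of these data were known when it was made. Of 22084 genes in the deposited tables, 54 carried such a name: 10 alpha, 21 beta, 11 gamma-A and 7 gamma-B members, and the 5 C-type members Pcdhac1, Pcdhac2, Pcdhgc3, Pcdhgc4 and Pcdhgc5. All 54 sit on the plus strand between positions 36930184 and 37841873, as the files give them (GRCm38 coordinates). Other genes in the cluster were not counted as members, and some of them are read beside the members below.

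RNA was sequenced from 4 mouse embryos of strain B6D2F2 at stage E13.5, 1 library per embryo name, in a study of how the nuclear protein Tcf20 affects the formation of neurons. KO26F and KO23M are labelled TCF20-/- and WT25F is labelled TCF20+/+. WT22M is called wild type in its title and TCF20+/- in its genotype field, so WT25F and WT22M together are called carriers of an intact allele. The tissue is given as telencephalon in the titles and as cerebral cortex in the extraction protocol. Which part of Tcf20 was removed, and whether the embryos came from separate litters, the sources used here do not say.

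Clustered protocadherins are cadherin-like adhesion proteins of the neuronal surface. Each alpha and gamma gene has its own first exon, with its own promoter, which is spliced to constant exons shared by its subcluster, whereas each beta gene is encoded by a single large exon. A neuron typically uses a small, partly random set of alpha, beta, gamma-A and gamma-B promoters, chosen through CTCF, cohesin and DNA methylation, while C-type promoters are used more widely. The proteins bind matching copies on other membranes, and this recognition is known for the self-avoidance of dendrites and axons, for neuron survival and for the spacing of serotonergic fibres.

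Total counts were even, from 17791641 in WT22M to 18509743 in KO23M. A floor of 3 counts therefore stands for 0.162 to 0.169 CPM, counts scaled to a library of 1000000. Where 4 values follow each other below, they are in the order KO26F, KO23M, WT25F, WT22M. Intervals below cover counting error only. Tcf20 itself stood at 98.6, 104, 118 and 111 CPM, lower in both KO libraries but not called (log2 fold change -0.18, SE 0.10, adjusted p = 1.0 by edgeR), which checks no genotype while the deleted part is unknown. The letters F and M in the names matched the sex-linked genes Xist, Kdm5d and Ddx3y in all 4 libraries. Of 15 neuron markers, 0 were at 0 counts in any library, and their summed level ran from 8672 CPM in KO26F to 9198 in WT25F. The 8 telencephalon markers had counts in every library. Libraries differed in markers of neighbouring tissue: choroid plexus genes summed to between 804 and 1028 CPM in the other libraries but to 220 in WT22M. Genes of the thalamus and diencephalon summed to 103 CPM in WT25F and to between 43.5 and 47.9 in the other libraries.

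Because alpha and gamma members share their last exons, and some genes overlap, the unshared exon bases were found from the annotation. The shared portion took 53.3 to 64.9% of exon bases in alpha members, 37.9 to 73.6% in gamma-A and 31.5 to 61.3% in gamma-B and 37.9 to 66.9% in C-type members. It was 0% in all beta members but Pcdhb12 (63.5%), Pcdhb21 (9.67%) and Pcdhb22 (6.88%). The count for Pcdhgb8 in WT22M was 12, while Pcdhgc3 had 771 in the same library, so reads in the exons that both share were not counted in full for each of them. Members also resemble each other in the unshared bases of their first exons: of all windows of 50 bases there, 10.2 to 25.5% in alpha members, 1.80 to 9.52% in beta, 0 to 4.61% in gamma-A, 3.94 to 16.8% in gamma-B and 0% in C-type members occur identically in another gene. By this measure alpha and gamma-B counts are the least certain for telling 1 member from another.

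All 5 subfamilies were expressed, and a C-type gene led. Of the 54 members, 52 had counts in every library; Pcdha1 had 4, 0, 7 and 2 counts and Pcdha8 had 0, 0, 5 and 3. Members together took 4770, 3891, 4212 and 3748 counts. The C-type genes held 25.5 to 32.0% of these, gamma-A 23.8 to 27.8%, beta 23.0 to 24.0%, gamma-B 16.9 to 19.6% and alpha 3.09 to 3.58%. The alpha genes, which encode proteins that need another protocadherin to reach the cell surface, were thus the smallest subfamily by count in every library.

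**Figure D1:**
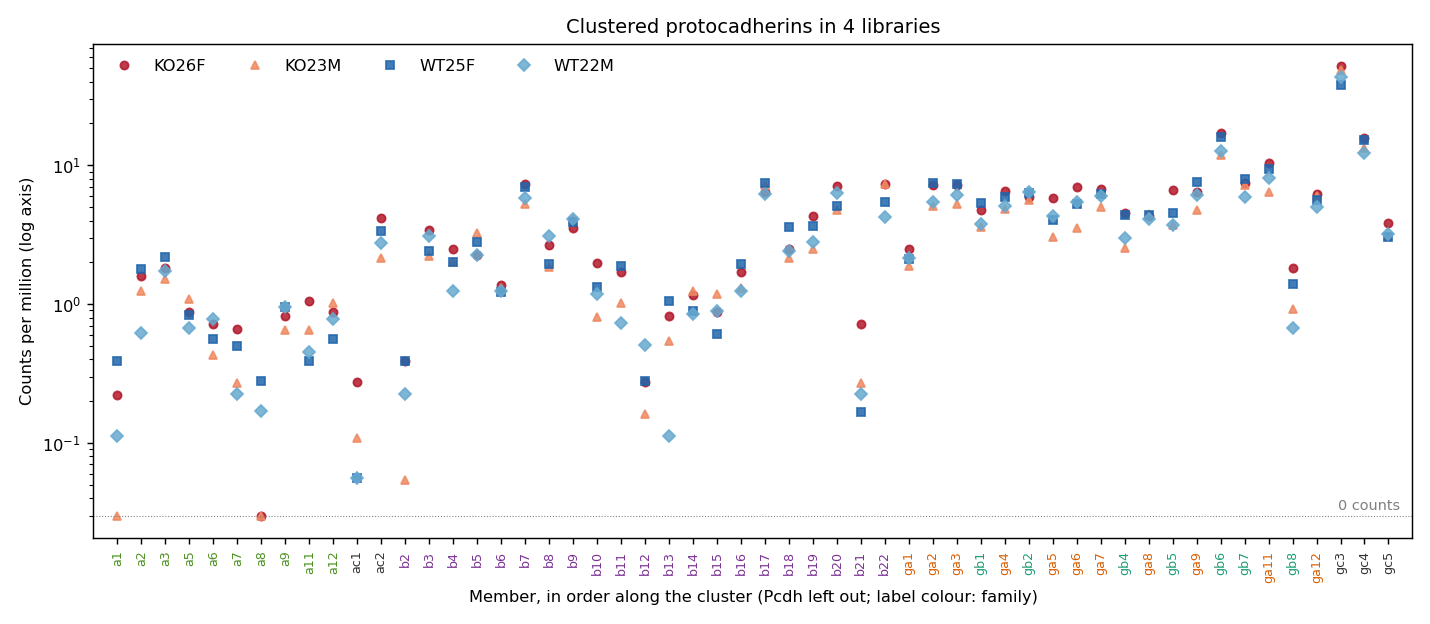
CPM of each of the 54 members in the 4 libraries, on a log axis, in the order of the genes along the cluster. Points of the 4 libraries mostly lie close together within a gene, and Pcdhgc3 stands highest in all 4.

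Among C-type members the levels spanned a wide range. Pcdhgc3, which has been tied to neuronal branching, stood at 51.5, 48.7, 38.1 and 43.3 CPM. It was the highest member in all 4 libraries. Pcdhgc4, the gamma isoform known to be needed for neuron survival, stood at 15.8, 13.2, 15.3 and 12.2 CPM. Pcdhac2, the isoform used by serotonergic neurons, stood at 4.14, 2.16, 3.34 and 2.75 CPM. Both showed KO26F highest and overlapping groups. Pcdhgc5 stood at 3.86, 3.08, 3.06 and 3.20 CPM, and Pcdhac1 was near the floor, with 5, 2, 1 and 1 counts.

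Levels of different genes can be compared only per length, and here were divided by the kilobases of exon that no other gene's exon overlaps. On that scale Pcdhgc3 averaged 24.9 CPM per kilobase (SD 3.26, n = 4 libraries). Next came Pcdhga11 at 6.80 (SD 1.38), Pcdhgb6 at 5.61 (SD 0.984), Pcdhgc4 at 4.07 (SD 0.494), Pcdhgb7 at 3.92 (SD 0.487) and Pcdhga4 at 3.56 (SD 0.491). Pcdhgc3 stood apart from all others by far more than these SDs, whereas neighbours in this order from Pcdhga11 down to Pcdhga4 differed by less than 2 of the larger SD. The unshared length was 1256 bases for Pcdhga11 and 1821 for Pcdhgc3, the shortest in their subfamilies. By CPM alone Pcdhga11 averaged 8.54 and Pcdhgb6 14.4, so the order of these 2 rests on the length used. Medians per kilobase were 2.06 CPM for gamma-A, 1.66 for gamma-B, 1.02 for C-type, 0.466 for beta and 0.335 for alpha members. The lowest were Pcdha8 at 0.0451, Pcdhac1 at 0.0484 and Pcdha1 at 0.0726 CPM per kilobase. If shared exon bases are counted in the length, the median falls to 0.135 for alpha, 1.12 for gamma-A, 0.754 for gamma-B and 0.526 for C-type members. The order of the 4 libraries over members was much alike, with Pearson's r of log2(CPM + 0.5) from 0.965 to 0.976 over 54 genes, a description of libraries that share these genes' lengths.

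**Figure D2:**
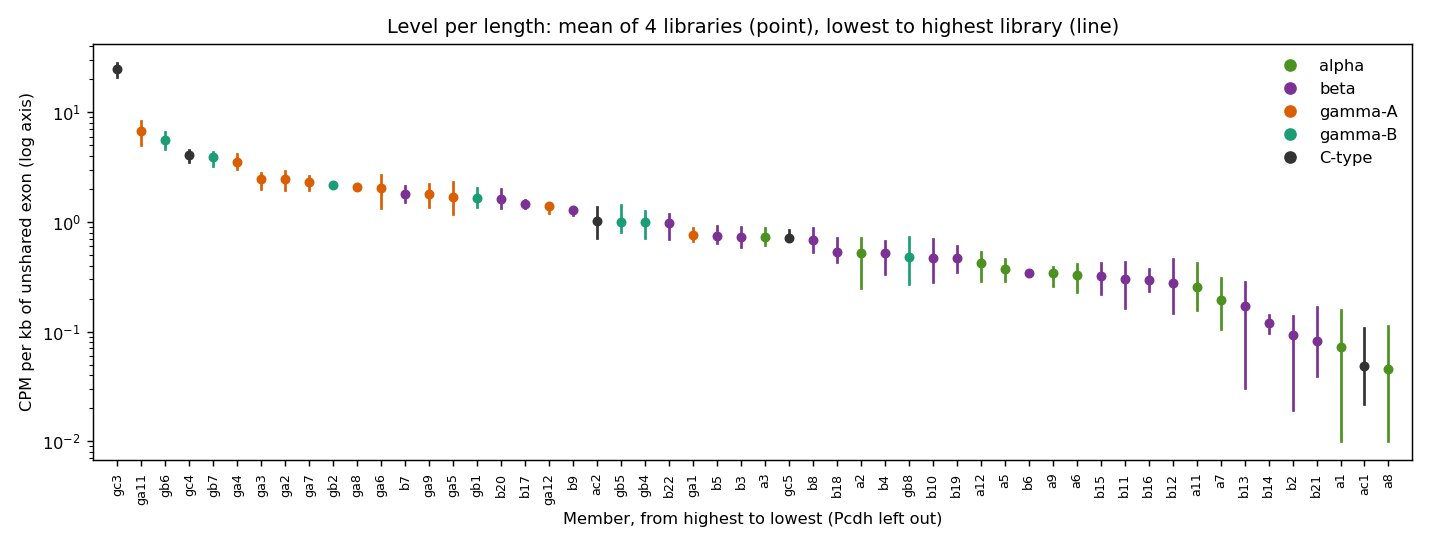
Mean level per kilobase of unshared exon for each member, on a log axis, by subfamily, with lines spanning the 4 libraries; lines that reach the bottom of the axis mark Pcdha1 and Pcdha8, which have a library at 0. Pcdhgc3, at 24.9 CPM per kilobase, lies above all others.

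Loss of Tcf20 was addressed by setting the 2 KO libraries against the 2 carriers. Of 47 members with enough counts to test, 0 passed edgeR's quasi-likelihood test at an adjusted p under 0.05; over all 16252 genes tested, 0.0615% were called. DESeq2 also called 0 members. At an unadjusted p under 0.05 there were 2 members, Pcdhgc3 and Pcdhb22, or 4.26% of 47, against 2.86% of all genes. The fitted log2 fold change was above 0 for 29 members (61.7% against 50.7% of all genes), with a median of 0.04 that ran from -0.18 without KO26F to 0.22 without KO23M. Standard errors ran from 0.11 to 0.72, with a median of 0.31. On simulated data of this size 73.1% of genes changed 2-fold were called and 40.3% of those changed 1.5-fold. Those genes were drawn from all 16252 tested, so these rates are not rates for the members. In bulk tissue, fewer cells of a type and less RNA per cell cannot be told apart.

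Summed subfamilies also overlapped between KO libraries and carriers, except C-type. Alpha sums were 8.66 and 6.86 CPM in KO26F and KO23M, against 8.41 and 6.52 in WT25F and WT22M. Beta sums were 60.4 and 50.5 CPM against 55.1 and 48.8. The gamma-A sums, at 70.3 and 50.1 CPM against 65.3 and 57.7, and the gamma-B sums, at 48.1 and 35.4 against 46.0 and 36.1, showed KO26F highest and KO23M lowest. C-type sums were 75.6 and 67.3 CPM in the KO libraries against 59.9 and 61.5 in carriers (log2 ratio 0.24; exact permutation p = 0.333, two-sided, the smallest that 2 against 2 can give). Without Pcdhgc3 the C-type sums were 24.1 and 18.6 CPM against 21.8 and 18.2, which overlap.

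**Figure D3:**
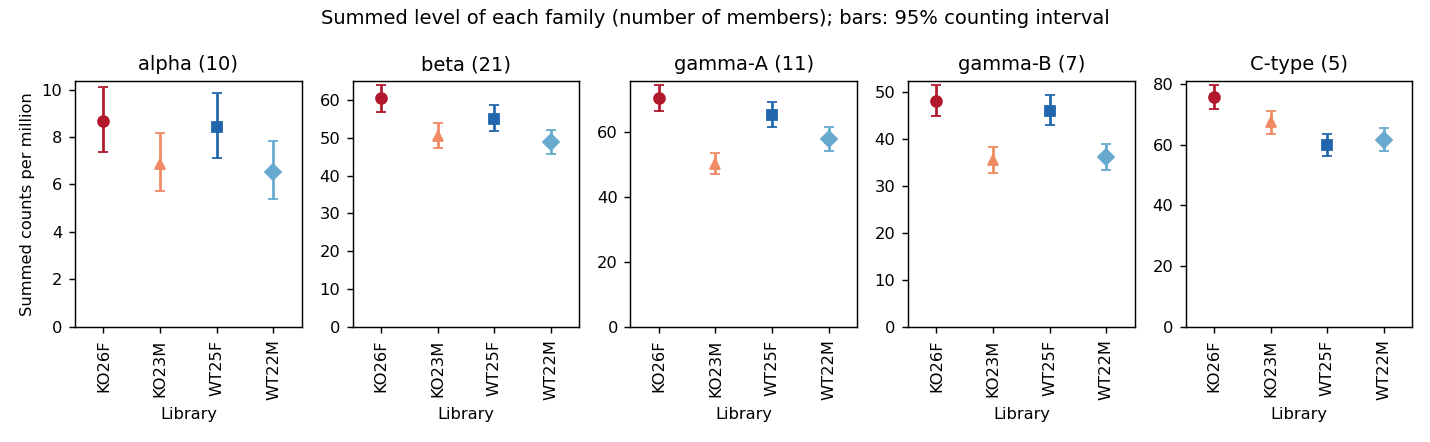
Summed CPM of the 5 subfamilies in each library, with 95% counting intervals. KO26F and WT25F lie above KO23M and WT22M in alpha, beta, gamma-A and gamma-B, while the C-type sums are highest in the 2 KO libraries.

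Pcdhgc3 was higher in both KO libraries than in either carrier. Its counting intervals were 48.3 to 54.9 CPM in KO26F and 45.6 to 52.0 in KO23M, against 35.3 to 41.1 in WT25F and 40.3 to 46.5 in WT22M. The fitted log2 fold change was 0.30 (SE 0.11, edgeR adjusted p = 1.0), from 0.19 without WT25F to 0.41 without WT22M. With the title letter as a block, edgeR's adjusted p was 0.0991. Within the F libraries the log2 ratio was 0.44 (counting interval 0.29 to 0.58) and within the M libraries 0.17 (0.03 to 0.31). A noncoding gene annotated in antisense, BC037039, overlaps Pcdhgc3; it had 50, 51, 45 and 65 counts, and without the strand setting the reads of both cannot be told apart. Some marker sums of other cells split by group in the same way or the opposite way. Telencephalon markers summed to 1745 and 1711 CPM in the KO libraries against 1515 and 1554 in the carriers, with 7 of 8 genes higher in KO. Meninges markers summed to 332 and 346 CPM against 412 and 419, and endothelium markers to 359 and 362 against 404 and 402, with 9 of 9 genes lower in KO in each list. Neuron markers (12 of 15 genes) and microglia markers (6 of 8) were also lower by count of genes and by sum. Sums of the other marker lists overlapped between groups. Choroid plexus markers were higher in KO for 9 of 9 tested genes (median 0.50), radial glia markers for 9 of 12 and red blood cell markers for 6 of 9. Thalamus and diencephalon markers were lower for 8 of 8 (median -0.84) and Cajal-Retzius markers for 6 of 8. None of these genes was called in KO against carriers. With the title letter as a block, edgeR called 3 meninges markers and 1 each for endothelium, telencephalon, radial glia and red blood cells. Of all these markers, 0 were at 0 counts in any library, and their part in the Pcdhgc3 difference was not tested.

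Pcdhb22, a beta member, stood at 7.28 and 7.29 CPM in the KO libraries and at 5.46 and 4.27 in the carriers, so that its groups did not overlap. Its log2 fold change was 0.58 (SE 0.22, edgeR adjusted p = 1.0). Such separation was seen for 8 of 47 members in the upward direction (17.0%, against 13.6% of all genes) and for 2 downward, Pcdha9 and Pcdhgb2 (4.26%, against 13.4%). The share with KO above is near that of all genes.

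Other members with the largest fitted change in their subfamily, none of them called, ranged from 46 counts over the 4 libraries for Pcdha11 to 450 for Pcdhga9. Among alpha members Pcdha11 stood at 1.05, 0.648, 0.390 and 0.450 CPM (log2 fold change 0.995, SE 0.60) and was higher in both KO libraries. Pcdha9 stood at 0.827, 0.648, 0.947 and 0.956 CPM (log2 fold change -0.37), lower in both KO libraries. Pcdhb18, the beta member with the lowest change (-0.37), stood at 2.48, 2.16, 3.57 and 2.42 CPM, and its groups overlapped. In gamma-A the range was from -0.29 for Pcdhga9, at 6.45, 4.75, 7.63 and 6.07 CPM, to 0.20 for Pcdhga12, at 6.18, 6.05, 5.63 and 5.0 CPM. In gamma-B it was from -0.14 for Pcdhgb2, at 5.90, 5.62, 6.30 and 6.41 CPM, to 0.40 for Pcdhgb8, at 1.82, 0.918, 1.39 and 0.674 CPM. Pcdhga12 and Pcdhgb2 did not overlap between groups, and Pcdhgb8 is annotated as a polymorphic pseudogene. Higher in KO were 4 of 7 tested alpha members, 12 of 18 beta, 5 of 11 gamma-A, 4 of 7 gamma-B and 4 of 4 C-type.

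Most of the other abundant members had groups that overlapped. Pcdhgb6, the leading gamma-B gene, stood at 17.0, 11.8, 16.0 and 12.6 CPM, with a change of 0.00 (SE 0.18). Pcdhga11, the leading gamma-A gene, stood at 10.4, 6.38, 9.36 and 8.04 CPM. In both genes KO26F was highest, KO23M lowest and the groups overlapped. Pcdhb7 stood at 7.39, 5.29, 6.97 and 5.79 CPM, Pcdhb17 at 6.45, 7.19, 7.47 and 6.24 CPM, and Pcdha3, the leading alpha gene, at 1.82, 1.51, 2.17 and 1.74 CPM, also overlapping. Pcdhga3 stood at 7.23, 5.24, 7.30 and 6.07 CPM, Pcdhga2 at 7.17, 5.08, 7.47 and 5.45, and Pcdhgb7 at 7.50, 7.24, 7.97 and 5.90, with WT25F highest in all 3. Pcdha2 stood at 1.60, 1.24, 1.78 and 0.618 CPM, lowest in WT22M, and Pcdha5 at 0.883, 1.08, 0.836 and 0.674 CPM, slightly higher in both KO libraries.

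**Figure D4:**
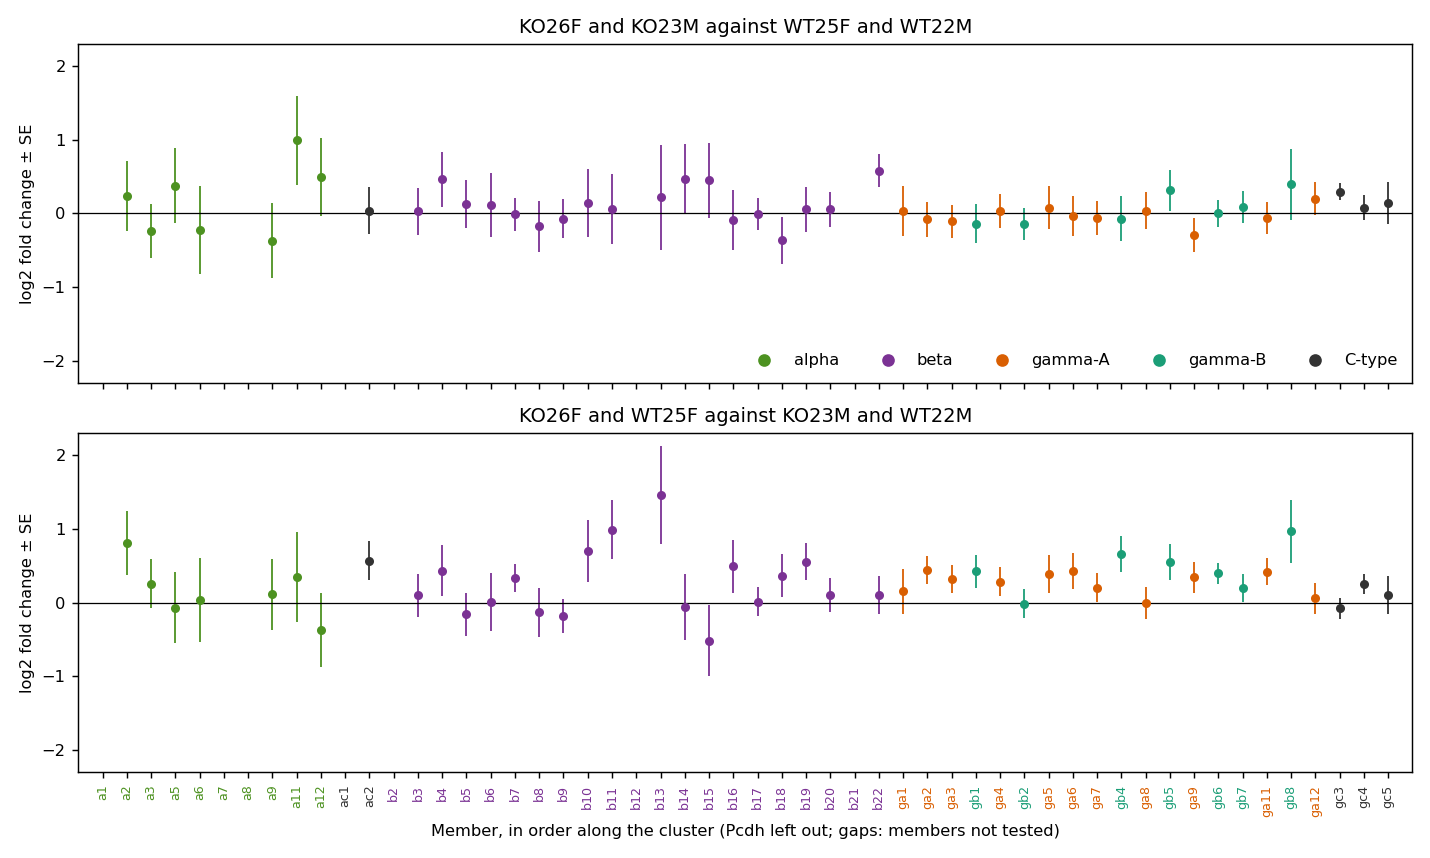
Fitted log2 fold change, with standard errors, for the 47 tested members by subfamily. The upper panel sets KO against carriers and the lower panel F against M libraries. In the upper panel Pcdhgc3 has the smallest error and most intervals span 0. In both comparisons 0 members were called.

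By the letters in their names, the F libraries mostly held more member counts than the M libraries, a comparison chosen after the values were seen. Both F libraries lay above both M libraries for 24 of 47 tested members (51.1%, against 29.6% of all genes) and below for 2, Pcdhb9 and Pcdhb15 (4.26%, against 18.6%). The fitted F-against-M change was above 0 for 37 members (78.7%, against 51.5%), with a median of 0.26, while that of all genes was 0.01. By edgeR, 0 members were called (0.252% of all genes), and 9 had an unadjusted p under 0.05 (19.1%, against 14.6% of all genes). Members share the cluster and the libraries, so they are not independent.

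In gamma-B, both F libraries lay above both M libraries for 6 of 7 members. Pcdhgb6 gave a change of 0.40 (SE 0.14, edgeR adjusted p = 0.216), Pcdhgb4 0.66 (SE 0.24, adjusted p = 0.244) and Pcdhgb5 0.55 (SE 0.24, adjusted p = 0.313). The same order of libraries held in 6 of 11 gamma-A, 8 of 18 beta, 2 of 7 alpha and 2 of 4 C-type members. Over all genes the share was 29.6%, and the alpha share is near it. Pcdhgc3 did not follow it, with a change of -0.08 (SE 0.14). Summed over all members, the libraries held 263, 210, 235 and 211 CPM (log2 ratio 0.24; exact permutation p = 0.333, two-sided). Markers of several cell types were also higher in F libraries: choroid plexus for 9 of 9 tested genes (median 0.95), thalamus and diencephalon for 8 of 8 (median 0.90), red blood cells for 9 of 9 (median 0.37), Cajal-Retzius neurons for 7 of 8 (median 0.15) and neurons for 11 of 15 (median 0.14). In the choroid plexus list WT22M alone stood apart, with sums of 1028, 804, 971 and 220 CPM. In the thalamus and diencephalon list it was WT25F, with sums of 47.9, 43.5, 103 and 43.7 CPM. Radial glia markers were higher for 5 of 12 (median -0.04) and microglia markers for 1 of 8 (median -0.18). Their part in the result was not tested.

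**Figure D5:**
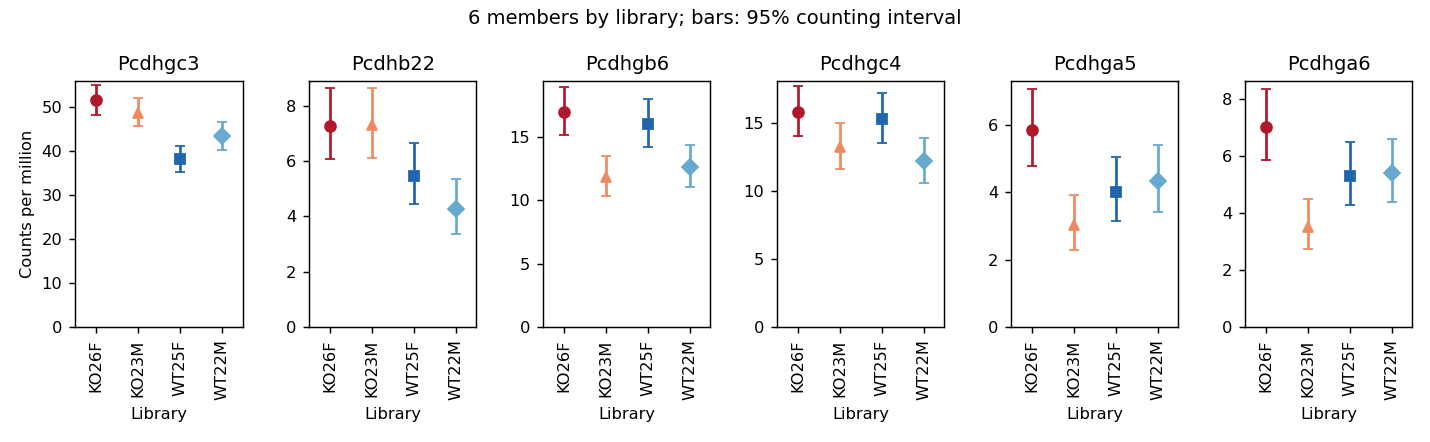
CPM with 95% counting intervals in each library for Pcdhgc3, Pcdhb22, Pcdhgb6, Pcdhgc4, Pcdhga5 and Pcdhga6. Pcdhgc3 and Pcdhb22 are higher in both KO libraries, while Pcdhgb6 and Pcdhgc4 are higher in KO26F and WT25F.

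Against WT25F alone, where the spread comes from the 2 KO libraries, 0 members were called for KO (0.345% of all genes) and 20 of 47 were higher (50.9% of all genes). Only Pcdhgc3 had an unadjusted p under 0.05 there (3.43% of all genes); it gave 0.41 (SE 0.15, edgeR adjusted p = 0.764). WT22M against WT25F also called 0 members (0.714% of all genes), with 31 of 47 lower (50.5% of all genes) and a median of -0.23. An unadjusted p under 0.05 was found there for 3 members, Pcdha2, Pcdhb11 and Pcdhb13 (4.88% of all genes). In the authors' deposited tables, which compare single libraries, 0 members were marked as changed in KO26F against WT25F (1.96% of listed genes) and 2 had a deposited adjusted p under 0.05 (13.7%). In KO23M the authors' deposited table marked 1 member (2.9% of genes), Pcdha1, at a log2 fold change of -3.85 for a gene at 0 counts in KO23M, and gave 11 an adjusted p under 0.05 (22.1%), 10 of them lower. In WT22M the authors' deposited table marked 3 members as lower (3.62% of genes): Pcdhb13 at -3.24, Pcdha2 at -1.53 and Pcdhb11 at -1.37. It gave 6 members an adjusted p under 0.05 (22.4%), 5 of them lower. The deposited marks fell on members with few reads: Pcdhb13 stood at 0.827, 0.540, 1.06 and 0.112 CPM. Pcdhgc3 had a deposited adjusted p under 0.05 in all 3 of the authors' deposited tables, always upward, and the tables share WT25F: its log2 fold changes were 0.43 in KO26F, 0.35 in KO23M and 0.18 in WT22M.

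Genes known to act on or with the cluster were read beside it. Of 14 tested cohesin and CTCF genes, which hold promoters and enhancers of the cluster in contact, 13 were higher in KO, with a median of 0.09 and 0 called. Their sums overlapped between groups, at 1131 and 989 CPM in KO26F and KO23M against 1040 and 987 in WT25F and WT22M. Of 20 DNA methylation and silencing genes, 15 were higher (median 0.04), with sums of 3579 and 3512 CPM against 3469 and 3533. Of 24 genes for intracellular partners and processing enzymes, 10 were higher (median -0.02). The cohesin acetyltransferase gene Esco2 had the smallest raw p of the first list, with 14.1, 11.5, 11.1 and 7.25 CPM and a change of 0.47 (SE 0.20, adjusted p = 1.0 by edgeR). KO26F was highest and WT22M lowest for Esco2, and the groups did not overlap. Non-clustered protocadherins were higher in KO for 3 of 12 genes (median -0.06), with Pcdh9 at -0.35. Classical and type II cadherins were higher for 7 of 18 and Celsr, Fat and Dachsous cadherins for 8 of 8 (median 0.07), and 0 genes of these lists were called. The Celsr, Fat and Dachsous sums overlapped, at 1672 and 1625 CPM in the KO libraries against 1542 and 1640 in the carriers.

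Around the cluster, within 500000 bases on either side, 9 of 27 tested genes were higher in F than in M libraries, with a median of -0.09. Of the genes lying between members, 4 of 6 were higher in F, with a median of 0.23. Other lists were counted by the sign of the fitted F-against-M change, which was above 0 for 51.5% of all genes. Cohesin and CTCF genes were higher for 13 of 14 (median 0.10) and non-clustered protocadherins for 9 of 12 (median 0.13). Classical and type II cadherins were higher for 13 of 18 (median 0.11), and intracellular partners and processing enzymes for 16 of 24. For DNA methylation and silencing genes it was 12 of 20, and for Celsr, Fat and Dachsous cadherins 4 of 8. Among marker lists not given above, it was 5 of 9 for endothelium, 4 of 9 for meninges and 3 of 8 for telencephalon. The nearest tested genes beside the cluster were Zmat2, at 136, 133, 134 and 136 CPM, and Diaph1, at 73.2, 79.6, 75.5 and 84.9 CPM. Taf7, a gene for a general transcription factor that lies inside the cluster, had 296, 318, 320 and 320 counts. None of these genes was called in KO against carriers.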

How the data were processed

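RNA was read as TruSeq libraries of total RNA. Bowtie2 2.2.3, TopHat2 2.0.12, HTSeq 0.6.0 and the build mm9 are named in the submitters' processing notes. The strand setting, and how multiply matching reads were handled, are not stated in the sources used here. The positions of all 54 members in the files equal those of GENCODE vM21 on GRCm38, not a build the notes name. The authors deposited unnormalized counts per gene in 3 tables, each setting 1 library against WT25F, per the file headers. The authors also deposited CPM values, log2 fold changes and raw and adjusted p-values.

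Tables were joined by gene, with an absent gene set to a count of 0. CPM was computed as the count divided by the library total. Counts were tested with edgeR 4.0.16 (TMM, filterByExpr, quasi-likelihood, Benjamini-Hochberg, threshold 0.05) in R 4.3.3, on 16252 genes. The SE is the absolute log2 fold change divided by the square root of the F statistic. Alternatives were RLE, DESeq2 1.42.0, limma 3.58.1 voom, other filters, the title letter as a block and each library left out; Python 3.11.15 was used. The script was tested on simulated data. Because separate litters are not stated, p-values here reflect only the spread between these embryos' libraries. F against M was added after seeing the data.

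Members were chosen by name, but both they and the lists were chosen with earlier results of these data known. Of 196 listed symbols in 16 lists, 195 were found. Named members are the C-type genes, per subfamily the 3 with the highest mean CPM, those at 0 in a library or marked in a deposited table, and the largest change each way. From the lists, Esco2, which had the smallest raw p of the cohesin and CTCF genes, and Pcdh9 are named. Most lists have no gene named. Pcdhga4, Pcdhgb4 and Pcdhgb5 were named after their values were seen, as were the 2 members higher in M libraries and Pcdhga5 and Pcdhga6.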

Additional observations from a re-analysis of the deposited data

Results flagged for a closer look

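In KO against carriers, 3 results moved in opposite directions within the F pair and the M pair, with counting intervals that did not span 0. They came from 63 sums and members examined, the difference was not tested, and each pair holds 1 library per arm. The rule was not applied to all genes, so no share of all genes can be given beside it. The gamma-A and gamma-B sum had a log2 ratio of 0.09 (0.0006 to 0.18) in the F pair and -0.13 (-0.23 to -0.03) in the M pair, a difference of 0.22. This sum includes Pcdhga5 and Pcdhga6, so the 3 results are not separate. Gamma-A alone gave 0.11 (-0.0086 to 0.22) in the F pair, which spans 0, and -0.20 (-0.33 to -0.07) in the M pair. Gamma-B alone gave 0.06 (-0.08 to 0.20) in the F pair and -0.03 (-0.19 to 0.13) in the M pair, and both intervals span 0. Pcdhga5 stood at 5.85, 3.03, 4.01 and 4.33 CPM in KO26F, KO23M, WT25F and WT22M. It gave 0.54 (0.098 to 0.996) in the F pair and -0.52 (-1.04 to -0.0012) in the M pair, a difference of 1.06. Pcdhga6, at 7.01, 3.51, 5.29 and 5.40 CPM, gave 0.40 (0.0093 to 0.80) and -0.62 (-1.10 to -0.15), a difference of 1.02. Some of these limits lie close to 0. In both genes KO26F was highest and KO23M lowest.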

How the results depend on the processing

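Across 10 alternatives for KO against carriers, 5 for each comparison with WT25F and 10 for F against M, 0 members were called, with 40 to 54 members tested. The median change of members, 0.04 in KO against carriers, ran from -0.18 without KO26F to 0.22 without KO23M. In KO against WT25F the median was -0.29 without KO26F and 0.13 without KO23M. Leaving out 1 library moved the gamma-A sum ratio from -0.30 to 0.19 and the C-type ratio from 0.15 to 0.32. With full exon length the medians per kilobase were 0.135 for alpha, 1.12 for gamma-A, 0.754 for gamma-B and 0.526 for C-type members, since shared bases enter the length. The sign of Pcdhac2 turned to -0.024 with limma voom. That of Pcdhgb6 turned to -0.00073 with RLE, -0.00070 with DESeq2, -0.011 with limma voom, -0.0026 without a filter and -0.0070 with the title letter as a block, all within 1 SE of 0. Leaving out each library turned the sign of 14 named members, whose changes then ranged from -0.31 to 1.17 for Pcdha2, -0.48 to 0.42 for Pcdhac2, -0.46 to 0.87 for Pcdhb11, -0.62 to 2.51 for Pcdhb13, -0.12 to 0.11 for Pcdhb17 and -0.25 to 0.19 for Pcdhb7. The ranges were -0.43 to 0.23 for Pcdhga11, -0.33 to 0.14 for Pcdhga2, -0.33 to 0.088 for Pcdhga3, -0.26 to 0.22 for Pcdhgb6, -0.10 to 0.30 for Pcdhgb7, -0.15 to 0.98 for Pcdhgb8, -0.065 to 0.23 for Pcdhgc4 and -0.010 to 0.27 for Pcdhgc5; the cause was not tested. Every member is listed in each deposited table, so setting genes missing from a table to 4 counts could not change the count of any member. Depth limits the alpha members most, with Pcdha8 at 5 counts or fewer in every library.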
